A study of Rattus norvegicus with 180 samples.

Results

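The miR-181 family was followed across the organs of the rat through its guide strands rno-miR-181a, rno-miR-181b, rno-miR-181c and rno-miR-181d (written without rno from here on), which were 4 of the 717 miRNAs on the array. They were chosen by name, without their starred strands (the other strand of the same hairpin, of which the array held 6), and 0 of their names had a second version on the array. The samples came from 10-week-old male Sprague-Dawley rats without any further treatment. A total of 3 rats (numbers 4, 5 and 6) were perfused with saline and gave 55 organs each, with 1 array per organ and rat. The other 3 rats (numbers 1, 2 and 3) were not perfused and gave liver, kidney, lung, heart atrium and heart interventricular septum, or 15 arrays. Each array was a 1-color Agilent array of total RNA from an organ of 1 rat, so the 3 values of an organ are separate animals, and the same 3 animals gave all 55 organs. Per the study's methods, duodenum, jejunum, ileum, cecum, colon and rectum were sampled as epithelium scraped from the mucosa, and liver as its left lateral lobe. In such bulk samples, fewer cells of a type and less RNA per cell cannot be told apart.

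MicroRNAs repress messenger RNAs that pair with their seed, the bases 2 to 8 from the 5′ end, so miRNAs with a shared seed can share targets. The miR-181 family is conserved among vertebrates and is made from hairpins that lie in pairs on the genome. In the thymus miR-181a is known for tuning the sensitivity of developing T cells to signals of the T cell receptor, in bone marrow the family is known from B-lineage differentiation, and members are also known from neurons and glia.

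The mature guide strands are shown because the whole family rests on a shared seed and the members differ by only a few bases behind it, which bears on how well array probes can separate them. Sequences are from RefSeq (build GRCr8), 5′ to 3′, all on the plus strand, with the seed in capitals.
miR-181a: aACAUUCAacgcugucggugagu
miR-181b: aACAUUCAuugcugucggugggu
miR-181c: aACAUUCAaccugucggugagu
miR-181d: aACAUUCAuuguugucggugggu
The seed ACAUUCA occurred in 4 of the 693 mature rat miRNA names in the RefSeq table, which were these 4.

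miR-181a lies at chr13:52037081-52037103 (Mir181a-1) and again at chr3:43025601-43025623 (Mir181a2), so its signal is the sum of both loci. miR-181b lies at chr13:52037263-52037285 (Mir181b1), 182 bases from the start of miR-181a, and also has a hairpin, Mir181b2, on chromosome 3. miR-181c lies at chr19:40888314-40888335 and miR-181d at chr19:40888484-40888506, with 170 bases between their starts. The hairpins on chromosome 3 lie within the protein-coding gene Nr6a1 and within a long noncoding RNA gene, those on chromosome 13 lie within a long noncoding RNA gene, and no gene of the annotation used contained those on chromosome 19.

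The sequences set the members in another order than the genome does. Counted from 1 at the 5′ end, with the base of the first-named member first, miR-181a and miR-181b differ by 3 substitutions (A9U, C10U and A21G). miR-181b and miR-181d, which lie on different chromosomes, differ by 1 substitution (C12U), and miR-181a and miR-181d by 4 (A9U, C10U, C12U and A21G). miR-181c has 22 bases where the others have 23, and differs from miR-181a by that 1 missing base. Each member was measured by 2 probe sequences with 10 spots each. Signal of a close relative on a probe was not tested here, so levels are compared between organs within a member and never between members.

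Levels are given as scaled signal, which is fluorescence after background correction, in arbitrary units, divided by a factor per array (the 75th percentile among 37 miRNAs that each of the 180 arrays detected) and held at a floor of 10.8. Over background means that the scanner software marked more than 50% of a member's spots on that array as well above it. Between 86 and 244 miRNAs (median 161.5) were over background per array, 0 of the 14340 miRNA spots of an array were saturated, and the percentile used for scaling lay between 68.0 and 6343. Its lowest values were those of pancreas (68.0 to 121), where scaling multiplied small signals most.

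miR-181a was over background on all 3 arrays of all 55 organs. miR-181b was over background on all 3 arrays in 50 organs, on 1 or 2 arrays in 2 and on none in 3 (duodenum, liver and ventral prostate). For miR-181c these counts were 46, 6 and 3, with liver, pancreas and ventral prostate not well above background. For miR-181d they were 35, 13 and 7, and the 7 were duodenum, femoris muscle, liver, pancreas, ventral prostate, other prostate and testicle. Detection thus fell in the order of the letters, and the ventral prostate and the liver were the organs without miR-181b, miR-181c or miR-181d over background on any array.

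**Figure D1:**
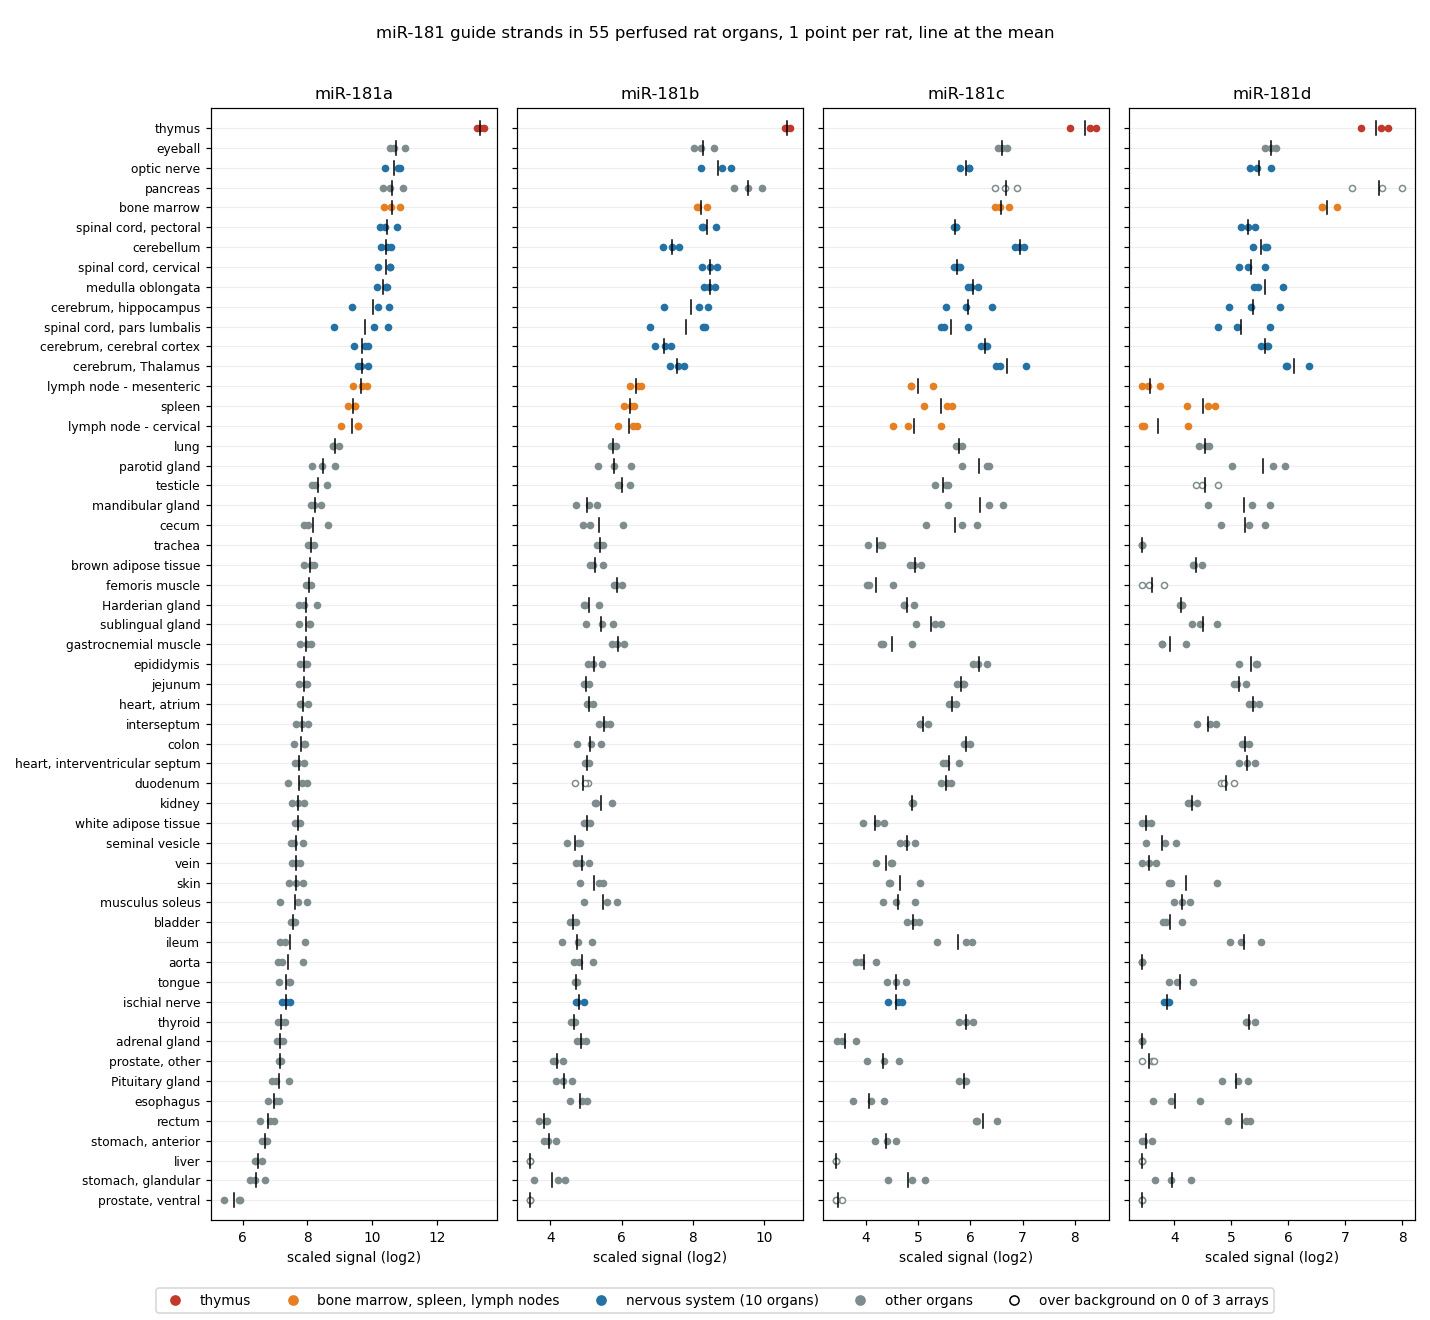
Scaled signal (log2 values, 1 panel and axis range per member) in each of the 55 organs, ordered by miR-181a, with 1 point per perfused rat, a line at the mean of the log2 values and open circles for organs over background on 0 of 3 arrays. The thymus stands above every other organ for miR-181a, miR-181b and miR-181c, while for miR-181d the pancreas, not well above background, reaches its range.

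The thymus, the organ where T cells mature, was the organ with the most signal of each member over background. miR-181a measured 9698, 11217 and 10310 in rats 4, 5 and 6 (mean 10408 ± 764 SD, n = 3). miR-181b measured 1584, 1700 and 1542 (1609 ± 81.8 SD, n = 3). The 3 rats lay close together for both members, and no array of the other 54 organs (0 of 162) reached the lowest thymus array of miR-181a or miR-181b.

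miR-181c measured 311, 339 and 240 in the thymus of rats 4, 5 and 6 (296 ± 51.1 SD, n = 3), and 0 of 162 other arrays reached the lowest of these. miR-181d measured 197, 214 and 154 (188 ± 30.6 SD, n = 3). Rat 6 was the lowest for miR-181c and miR-181d. For miR-181d, 2 of the 162 other arrays reached the lowest thymus value, both from pancreas and not over background, and 0 of the arrays where it was over background did.

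The distance from the thymus to the next organ differed by member. For miR-181a the next was eyeball at 1728 ± 286 (SD, n = 3), 6.06-fold lower on the scale of mean log2 values. For miR-181b it was pancreas at 770 ± 208, 2.14-fold lower, on arrays whose signals before scaling were 31.8 to 32.8. For miR-181c it was cerebellum at 123 ± 7.48, 2.38-fold lower, and for miR-181d bone marrow at 103 ± 11.4, 1.82-fold lower. Against the median organ over background the thymus was 43.5-fold higher for miR-181a, 37.8-fold for miR-181b, 5.89-fold for miR-181c and 4.99-fold for miR-181d. These medians run over 55, 50, 46 and 35 organs, so the folds of the members do not rest on the same organs.

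At the low end the members met fewer measurable organs. The lowest level of miR-181a was in ventral prostate, at 58.8, 43.2 and 60.3 in the 3 rats, 194-fold below the thymus. miR-181b in thymus was at least 44.8-fold higher than in liver, at least 53.3-fold higher than in duodenum and at least 65.7-fold higher than in ventral prostate, taking the dimmest miRNA over background on each array as the limit. For miR-181c the thymus was at least 8.17-fold above liver, at least 12.0-fold above ventral prostate and at least 1.53-fold above pancreas. For miR-181d the limits ran from at least 5.20-fold (liver) to at least 12.6-fold (other prostate), and none could be given for pancreas.

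Between the extremes the order of organs was seldom resolved by 3 rats. The order of means was read over the organs where a member was over background on all 3 arrays. Of neighbours in this order, the values of the 3 rats did not overlap in 3 of 54 pairs for miR-181a, 5 of 49 for miR-181b, 2 of 45 for miR-181c and 5 of 34 for miR-181d. The step from thymus to the next organ was resolved for all 4, for miR-181d only with pancreas left out. For miR-181d pancreas was not over background, and its values overlapped those of thymus. The limma F test over the 55 organs called all 4 members (limma adjusted p 1.25e-73, 2.00e-73, 3.28e-59 and 2.92e-59 for miR-181a to miR-181d). This is the background rate, since 99.7% of the 345 miRNAs tested were called. Organs held 97.9%, 97.9%, 96.2% and 96.2% of the variance of the log2 values, against a median of 96.5% over all tested, and the range between the highest and the lowest organ was 7.6, 7.21, 4.76 and 4.15 log2 units, against a median of 5.00.

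Set against the mean of the other 54 organs on the log2 scale, the thymus was higher for all 4 members. The limma difference was 5.05 ± 0.15 (SE) for miR-181a, a fold of 33.1, with an adjusted p of 1.46e-59. It was 4.91 ± 0.16 for miR-181b (30.1-fold, limma adjusted p 1.01e-53). The differences of these 2 members were larger than those of the other pair. With the 55 organs exchanged, however, no ratio across the pairs was called in thymus (adjusted exact permutation p 0.0935 to 0.229).

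For miR-181c the limma difference of thymus was 2.92 ± 0.13 (7.59-fold, adjusted p 4.85e-41) and for miR-181d 2.89 ± 0.14 (7.43-fold, adjusted p 3.86e-39). By size the 4 differences ranked 5, 7, 27 and 28 of 345, where 27.8% of all miRNAs tested were called higher in thymus and the median difference was -0.19. With the 55 organs exchanged, a test chosen after the values were seen, the thymus lay farthest from the mean of the other organs for miR-181a, miR-181b and miR-181c (two-sided exact permutation p 0.0182, the smallest that 55 organs allow) and second farthest for miR-181d (p 0.0364). The exact permutation over arrays (p 2.72e-06 for miR-181a to miR-181c, the smallest it can give, and 3.26e-05 for miR-181d) treats the 3 arrays of an organ as independent. Against the other arrays on the same slide the mean differences were 5.25, 5.31, 2.88 and 2.96. Under the normexp background the differences were 4.61, 3.43, 1.62 and 1.31, still called by limma, so that of miR-181b fell well below that of miR-181a.

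Markers of the cells a thymus holds were read beside these values. The leukocyte list (miR-142-3p, miR-142-5p, miR-150 and miR-223, with miR-155 not measured here) was over background in full, 4 of 4, and its summed level was 31011 to 41439 in thymus against 19559 to 33351 in the cervical lymph node and 17738 to 26955 in bone marrow. The sum was carried by miR-142-3p (32163 in thymus), while miR-150, a marker of mature lymphocytes, was 1080 in thymus against 2787 in spleen, 4299 in the cervical and 4899 in the mesenteric lymph node and 545 in bone marrow. miR-223, a myeloid marker, was 327 in thymus against 2473 in bone marrow, 1022 in spleen, 332 in the cervical and 457 in the mesenteric lymph node. The erythroid markers miR-451 and miR-144 summed to 31.0 to 64.1, with neither over background on all 3 thymus arrays. Of 8 neuronal markers only miR-128 was over background in thymus, at 2309 ± 203 (SD, n = 3), and the defining markers miR-124 and miR-9 were at the floor. Of 5 epithelial markers 4 were over background on all 3 arrays, with sums of 545 to 727. The part of cell composition in the level of the members was not tested.

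**Figure D2:**
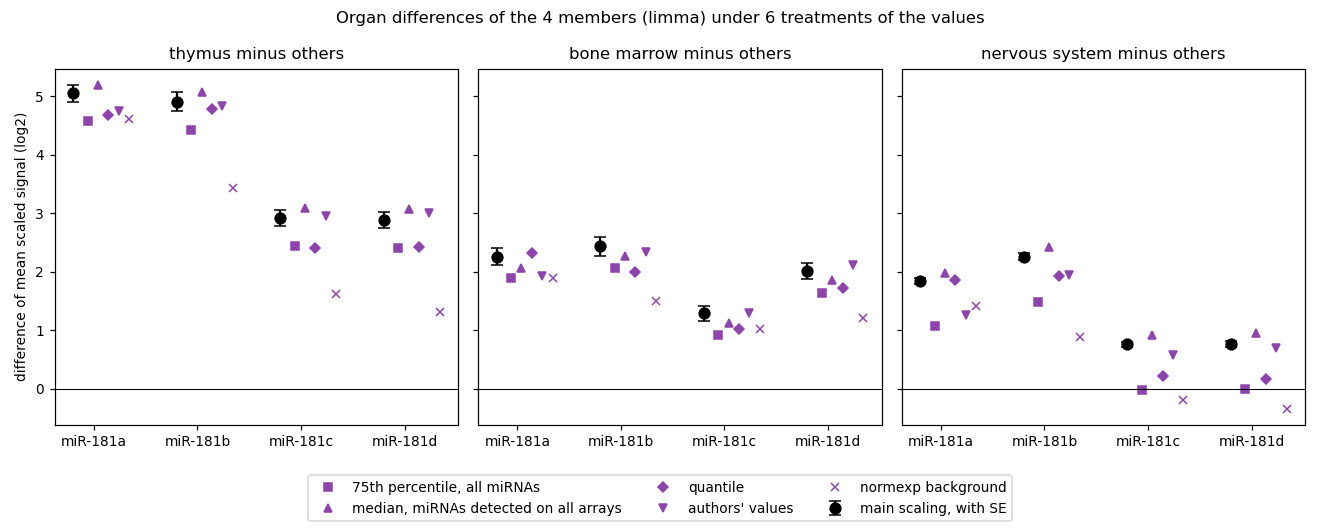
Differences of mean log2 signal from limma for the 4 members, for thymus and bone marrow against the other 54 organs and for the nervous system against the other 45, with black circles and SE bars for the scaling used and purple symbols for 5 other treatments of the values. In thymus miR-181a (5.05) and miR-181b (4.91) lie above miR-181c (2.92) and miR-181d (2.89), and in the nervous system miR-181c and miR-181d reach 0 or fall below it under 2 treatments.

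Bone marrow, where blood cells including B-lineage cells form, also held all 4 members over background on 3 of 3 arrays. miR-181a measured 1314, 1540 and 1856 in rats 4, 5 and 6 (1570 ± 272 SD, n = 3). miR-181b measured 281, 278 and 341 (300.2 ± 35.4 SD, n = 3). Rat 6 was the highest for both, and the range of miR-181a overlapped with those of eyeball, pancreas and all nervous system organs except cerebral cortex, Thalamus and ischial nerve.

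miR-181c measured 94.6, 89.1 and 107 in bone marrow (96.8 ± 8.93 SD, n = 3), and miR-181d measured 96.3, 96.0 and 116 (103 ± 11.4 SD, n = 3). Rat 6 was again the highest. miR-181d was the only member for which bone marrow came second among the organs where it was over background.

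Against the mean of the other 54 organs bone marrow was higher for all 4 members, by 2.26 ± 0.15 for miR-181a, 2.44 ± 0.16 for miR-181b, 1.29 ± 0.13 for miR-181c and 2.01 ± 0.14 for miR-181d (log2 ± SE). The limma adjusted p were 2.63e-28, 2.83e-27, 1.06e-15 and 2.06e-26, where 29.9% of all tested were called higher, and the folds were 4.79, 5.43, 2.45 and 4.03. With the 55 organs exchanged, bone marrow passed 0.05 for no member (two-sided exact permutation p 0.109, 0.145, 0.182 and 0.0545). The exact permutation over arrays, which treats the 3 arrays of an organ as independent, gave 0.0196, 0.0235, 0.0286 and 0.00332. On the same slides the differences were 2.77, 2.92, 2.00 and 2.72, and under the normexp background they were 1.89, 1.51, 1.02 and 1.20. The normexp background moved the median of all tested to 0.72, and relative to it the differences were 1.18, 0.79, 0.30 and 0.49, against 2.43, 2.61, 1.46 and 2.18 before. With a floor 4 times as high those of miR-181c and miR-181d were 0.83 and 1.12. The erythroid markers summed to 21313 to 35528 in bone marrow and the leukocyte list to 17738 to 26955, and their part in the result was not tested.

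The peripheral lymphoid organs lay far below the thymus. In spleen, which filters blood, miR-181a measured 707, 711 and 607 and miR-181b 76.3, 82.0 and 67.5 in rats 4, 5 and 6. In the mesenteric lymph node miR-181a measured 682, 922 and 827. In the cervical lymph node it measured 528, 760 and 758, so spleen and both lymph nodes overlapped with each other and none overlapped with thymus or bone marrow.

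The thymus was higher than bone marrow by 2.74, 2.43, 1.60 and 0.87 log2 units for miR-181a, miR-181b, miR-181c and miR-181d (limma adjusted p 2.55e-23, 3.25e-17, 7.59e-13 and 8.95e-05, where 18.3% of all tested were called higher). It was higher than spleen by 3.95, 4.42, 2.76 and 3.03, where 25.5% were called higher. It was higher than the cervical lymph node by 3.95, 4.44, 3.27 and 3.83, where 21.7% were called higher, and than the mesenteric lymph node by 3.69, 4.24, 3.19 and 3.97, where 23.2% were called higher. All 16 differences were called by limma. The values of the 3 rats did not overlap in any, with an exact permutation p of 0.1, the smallest that 3 against 3 arrays allow. How many of all tested miRNAs showed no overlap was not counted. The calls of miR-181c and miR-181d against bone marrow were lost under the normexp background (0.59 and 0.11), and that of miR-181d also with slide as a fixed block (0.17) and with the authors' table (0.88). Against spleen and the lymph nodes the lowest differences under any alternative were 2.84 for miR-181a, 3.33 for miR-181b, 1.66 for miR-181c and 1.74 for miR-181d, all called.

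Limits on single arrays touch the lymph nodes. miR-181d was over background on 1 of 3 arrays of the cervical and 2 of 3 of the mesenteric lymph node, so its differences there rest on values near the floor. The 5 epithelial markers summed to 3646 on the cervical lymph node array of rat 4 and to 55.6 on the lowest array of that organ. Without rat 4 the thymus was higher than the cervical lymph node by 3.82, 4.28, 3.49 and 4.05.

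Bone marrow was in turn higher than the mean of spleen and both lymph nodes for all 4 members. The differences were 1.12 ± 0.17 for miR-181a, 1.94 ± 0.19 for miR-181b, 1.47 ± 0.15 for miR-181c and 2.74 ± 0.16 for miR-181d (limma adjusted p 5.73e-09, 7.07e-17, 2.57e-15 and 1.58e-31), where 26.7% of all tested were called higher. This comparison was chosen after the values were seen. For miR-181d it rests in part on lymph node values near the floor.

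The nervous system comprised optic nerve, cerebral cortex, hippocampus, Thalamus, cerebellum, medulla oblongata, the cervical, pectoral and pars lumbalis levels of the spinal cord, and ischial nerve. The mean of these 10 exceeded that of the other 45 organs by 1.84 ± 0.05 for miR-181a and 2.26 ± 0.06 for miR-181b (limma adjusted p 7.21e-63 and 5.09e-67, folds 3.58 and 4.79). The excess was 0.76 ± 0.05 for miR-181c and 0.77 ± 0.05 for miR-181d (limma adjusted p 2.55e-31 and 2.07e-30, folds 1.70 and 1.71), where 39.7% of all tested were called higher and the median difference was -0.15. For each member 9 of the 10 organs lay above the mean of the other 45, and ischial nerve lay below it, by -0.71, -0.61, -0.61 and -0.70 log2 units for miR-181a to miR-181d. By mean log2 value the cervical, pectoral and pars lumbalis cord ranked 21, 22 and 25 of the 55 organs for miR-181c. For miR-181d they ranked 13, 16 and 23. Organs outside the nervous system lay above them, such as rectum and epididymis for miR-181c and heart atrium for miR-181d. Permutation of organ means, 10 against 45, gave two-sided p of 0.00042, 0.00012, 0.0238 and 0.0332 for miR-181a to miR-181d. On the same slides the differences were 1.77, 2.04, 0.78 and 0.87. Eyeball, which the study lists under nervous system, was counted here among the other 45 organs.

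The higher level of miR-181a and miR-181b in the nervous system kept its direction under every alternative tried, down to 1.07 for miR-181a (75th percentile over all miRNAs) and 0.89 for miR-181b (normexp background), and that of miR-181c and miR-181d did not. With the 75th percentile over all miRNAs as the scale their differences were -0.012 and -0.00044, and with the normexp background -0.18 and -0.34, where the limma call was lost or turned. Relative to the median of all tested they were 0.18 and 0.20 under the first and 0.27 and 0.12 under the second.

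Within the nervous system miR-181a and miR-181b were highest in optic nerve, a tract of axons and glia. miR-181a measured 1352, 1771 and 1867 there in rats 4, 5 and 6, and miR-181b 301, 456 and 535, so rat 4 was the lowest for both. Against the other 9 nervous system organs the differences were 0.88 ± 0.15 and 1.15 ± 0.17 (limma adjusted p 2.83e-07 and 3.82e-09), where 46.4% of all tested were called in either direction. miR-181c and miR-181d had differences of -0.04 and 0.17 there, neither called, but with the 75th percentile over all miRNAs both were called (0.64 and 0.85), as with quantile normalization (0.76 and 1.08), and miR-181c with the authors' table (0.80). The striated muscle markers summed to 5004 on the highest and 65.0 on the lowest array of optic nerve, with the high value in rat 4, and without rat 4 the differences were 0.97 and 1.35.

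In cerebellum, which is rich in granule neurons, miR-181c measured 116, 122 and 131 and did not overlap with any other nervous system organ except Thalamus. There miR-181c was higher by 1.10 ± 0.14 (limma adjusted p 1.83e-11) and miR-181a by 0.61 ± 0.15 (limma adjusted p 0.00035), where 51.9% of all tested were called. miR-181b had a difference of -0.30 and miR-181d of 0.21, neither called. With the 75th percentile over all miRNAs as the scale both were called (0.47 and 0.98), and miR-181d was also called with the median scale (0.63) and with quantile normalization (0.70). The call of miR-181c in cerebellum was lost under the normexp background (0.42). In Thalamus, a relay to the cortex, miR-181c measured 134, 94.4 and 90.0 and miR-181d 81.7, 62.2 and 62.8, with rat 4 the highest for both. Their differences were 0.84 and 0.85 (limma adjusted p 9.87e-08 and 2.23e-07), where 42.3% of all tested were called. Both calls were lost with the 75th percentile over all miRNAs (0.024 and 0.030), quantile normalization (0.022 and 0.11), the authors' table (0.050 and 0.056) and the normexp background (0.49 and 0.41). miR-181a and miR-181b had differences of -0.22 and -0.12 in Thalamus, neither called. They were called lower with the 75th percentile over all miRNAs (-1.04 and -0.93), the authors' table (-1.01 and -0.91) and quantile normalization (-0.38 and -1.06).

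In the lower brainstem and 2 levels of the cord, miR-181a and miR-181b were the members that were called. In medulla oblongata miR-181a and miR-181b were higher by 0.51 and 0.88 (27.5% of all tested called), in the cervical spinal cord by 0.59 and 0.88 (24.1% called) and in the pectoral spinal cord by 0.64 and 0.79 (23.2% called). miR-181c and miR-181d had differences between -0.26 and 0.28 in these 3 organs, none of them called. The calls of miR-181a held in 13 of 21 alternatives in medulla oblongata, where the difference went down to 0.087, and in 15 of 21 in each of the 2 cord levels, down to -0.036 and 0.015. Those of miR-181b held in 20, 19 and 18 of 21. Leaving out rat 5 or rat 6 ended the call of miR-181a in medulla oblongata (0.48 and 0.51), and leaving out rat 6 that in the pectoral cord (0.53). In cerebral cortex miR-181b was lower, at -0.55, and miR-181c higher, at 0.36 (limma adjusted p 0.00554 and 0.0315), where 39.1% of all tested were called. These calls held in 17 and 10 of 21 alternatives. That of miR-181b was lost without rat 6 (-0.34), and that of miR-181c without rat 4, 5 or 6 (0.37, 0.39 and 0.32). With the median of the miRNAs detected on all arrays as the scale, miR-181b turned to 0.046 and miR-181c rose to 0.95. On that scale miR-181a and miR-181d were called higher too (0.38 and 0.88). With the 75th percentile over all miRNAs and with the authors' table, miR-181a was called lower in cerebral cortex (-0.43 and -0.45).

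In hippocampus and in pars lumbalis of the spinal cord 0 of 4 members were called, where 41.2% and 20% of all tested were called, and each held an array that stood apart. In hippocampus miR-181a measured 663 in rat 5 against 1456 and 1173 in rats 4 and 6. In pars lumbalis it measured 456 in rat 4 against 1423 and 1074 in rats 5 and 6. For miR-181a the 3 rats spread more in these organs than in the other 8. Some of the marker sums differed on these arrays. In hippocampus the myelin markers summed to 1634 in rat 5 against 5246 and 4111 in rats 4 and 6 and the leukocyte list to 213 against 381 and 285, while the neuronal sums were close (17021 against 17246 and 18872). In pars lumbalis the neuronal markers summed to 2857 in rat 4 against 11191 and 7075 in rats 5 and 6, and the myelin markers to 4338 against 7042 and 6189. There the erythroid markers summed to 849 in rat 4 against 153 and 63.8, the leukocyte list to 912 against 510 and 439 and the striated muscle markers to 263 against 503 and 725, and the epithelial markers were at the floor on all arrays of both organs. Their part in the spread of miR-181a was not tested. Without rat 5 miR-181a and miR-181b were called in hippocampus (0.53 and 0.70), and without rat 4 miR-181b in pars lumbalis (0.63). With all rats, miR-181a and miR-181b were also called in hippocampus with the median of the miRNAs detected on all arrays as the scale (0.37 and 0.52). The labels of the rat 5 array of pars lumbalis give 2 rat numbers, as do those of medulla oblongata and of the other 2 cord levels. Without the 8 such arrays miR-181a and miR-181c were called lower in pars lumbalis (-0.44 and -0.51), and miR-181a and miR-181b were still called in medulla oblongata and in the cervical and pectoral cord.

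The ischial nerve, a peripheral nerve of axons and Schwann cells, was the lowest of the 10 for all 4 members. miR-181a measured 160, 149 and 176 there, and miR-181b 27.2, 26.5 and 30.7. miR-181c measured 25.8, 24.7 and 21.4, and miR-181d 14.9, 14.0 and 14.8. The differences to the other 9 were -2.84 ± 0.15, -3.18 ± 0.17, -1.53 ± 0.14 and -1.63 ± 0.15 (limma adjusted p 9.69e-35, 6.97e-35, 1.19e-18 and 2.14e-19), where 56.2% of all tested were called. Other scalings, the authors' table and a higher floor brought these closer to 0. They were -1.75 for miR-181a and -0.43 for miR-181c with the authors' table, and -0.16 for miR-181d with a floor 4 times as high. The call of miR-181d was lost with the authors' table (-0.54) and the normexp background (-0.34).

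In all, 18 of 40 such differences were called, against 37.2% of all miRNAs tested in the 10 comparisons, and 6 were called in the same direction under every alternative: miR-181a in cerebellum, miR-181a and miR-181b in optic nerve, and miR-181a, miR-181b and miR-181c in ischial nerve. The other 12 lost their call or turned under at least 1 alternative. The neuronal markers were over background in full, 8 of 8, in cerebral cortex, hippocampus, Thalamus and cerebellum, 5 of 8 in optic nerve (sums of 1972 to 2412) and 6 of 8 in ischial nerve (sums of 233 to 258). Of 4 myelin markers 3 were over background on all 3 arrays of optic nerve (sums of 3804 to 5708) and of cerebellum (1015 to 1759), as of medulla oblongata (4703 to 6096) and of the cervical (6594 to 7454) and pectoral (6437 to 7541) spinal cord, and 1, miR-338, in ischial nerve (2561 to 2684), where miR-219-5p and miR-219-2-3p were at the floor. Their part in the differences was not tested.

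**Figure D3:**
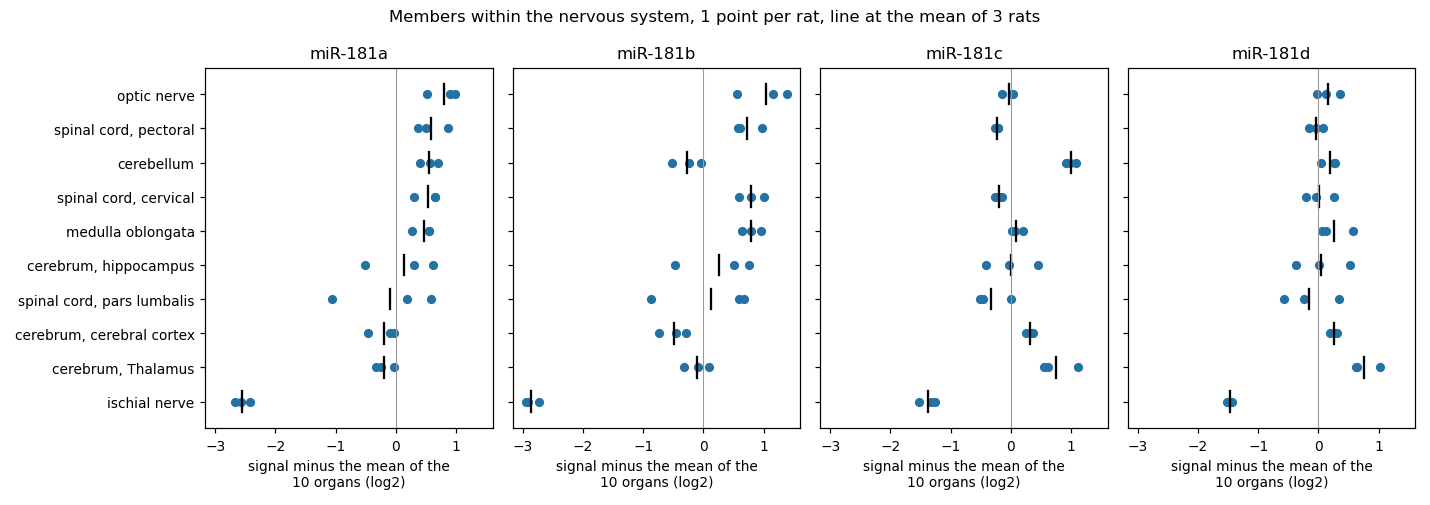
Log2 signal of each member in the 10 nervous system organs minus its mean over these organs, with 1 point per perfused rat and a line at the mean of 3 rats. Ischial nerve is lowest for all 4 members, miR-181a and miR-181b are highest in optic nerve, miR-181c in cerebellum and miR-181d in Thalamus.

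Ratios between members on the same array do not depend on a factor per array, apart from values held at the floor, and were used to ask whether members changed unequally between organs. Of 18 such comparisons (6 pairs in thymus, bone marrow and nervous system) 10 were called after Benjamini-Hochberg adjustment of permutation p, over arrays for thymus and bone marrow and over organ means for the nervous system. With organs exchanged for thymus and bone marrow too, 5 were called, all of the nervous system. How often ratios of other miRNAs would be called was not tested, so neither count can be read as particular to the family. In thymus the difference of miR-181a exceeded that of miR-181c by 2.13 and of miR-181d by 2.16 log2 units, and that of miR-181b exceeded them by 1.99 and 2.02. The permutation over arrays called these 4 (adjusted exact permutation p 0.000343, 0.00144, 0.0105 and 0.00414), and with the 55 organs exchanged none was called (adjusted exact permutation p 0.0935, 0.0935, 0.229 and 0.145).

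Within each pair of genome neighbours the differences of thymus were 0.14 log2 units apart for miR-181a against miR-181b (adjusted exact permutation p over arrays 0.721) and 0.03 for miR-181c against miR-181d (adjusted exact permutation p 0.939). Under the normexp background they were 4.61 against 3.43 and 1.62 against 1.31. In the nervous system miR-181a against miR-181b differed by -0.42 (adjusted permutation p 0.0105). This moved with the treatment of the values. The nervous system differences of miR-181a and miR-181b were 1.86 and 1.93 with quantile normalization, 1.26 and 1.95 with the authors' table, and in the opposite order, 1.42 and 0.89, with the normexp background. The differences of miR-181c and miR-181d in the nervous system were apart by -0.01 (adjusted permutation p 0.939). There miR-181a exceeded miR-181c and miR-181d by 1.08 and 1.07, and miR-181b exceeded them by 1.5 and 1.49 (adjusted permutation p 0.00414, 0.00771, 0.00144 and 0.00054).

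In bone marrow the permutation over arrays called miR-181c against miR-181d alone, at -0.72 log2 units (adjusted exact permutation p 0.0240), and with organs exchanged it was not called (adjusted exact permutation p 0.145). With organs limited to those where both members were over background the number of calls was again 10 of 18. With the authors' table, on which no floor was set, it was 0 of 18. The part of the missing floor in this was not tested. Within the nervous system, 60 ratios of the members, and none of other miRNAs, were tested over arrays after the values were seen. With its 10 organs exchanged no p can go below 0.1, so these calls rest on arrays that share an organ. In cerebellum the ratio of miR-181a to miR-181b was higher by 0.91 and that of miR-181c to miR-181d by 0.89 log2 units (adjusted exact permutation p 0.00985 for both). In ischial nerve the ratios of miR-181a and miR-181b to miR-181c and miR-181d were lower by between -1.21 and -1.66 (adjusted exact permutation p 0.00985 to 0.0148), and no other of the 60 was called.

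Across the 55 organ means, members from the same genome pair followed each other most closely. Pearson's correlation of mean log2 values was 0.969 for miR-181a and miR-181b and 0.925 for miR-181c and miR-181d. For the 4 pairs across these it lay between 0.669 (miR-181b and miR-181c) and 0.723 (miR-181a and miR-181c). The points share rats, slides and the scaling of each array, and thymus is a point far from the rest, without which the values were 0.963 and 0.911 within and 0.601 to 0.658 across. After each organ's mean was taken out, the correlation over the perfused arrays was 0.852 for miR-181a and miR-181b, 0.720 for miR-181c and miR-181d, and between 0.143 and 0.407 for the other 4 pairs. miR-181b and miR-181d, the pair with 1 substitution between them, had 0.712 over organ means and 0.366 over arrays.

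**Figure D4:**
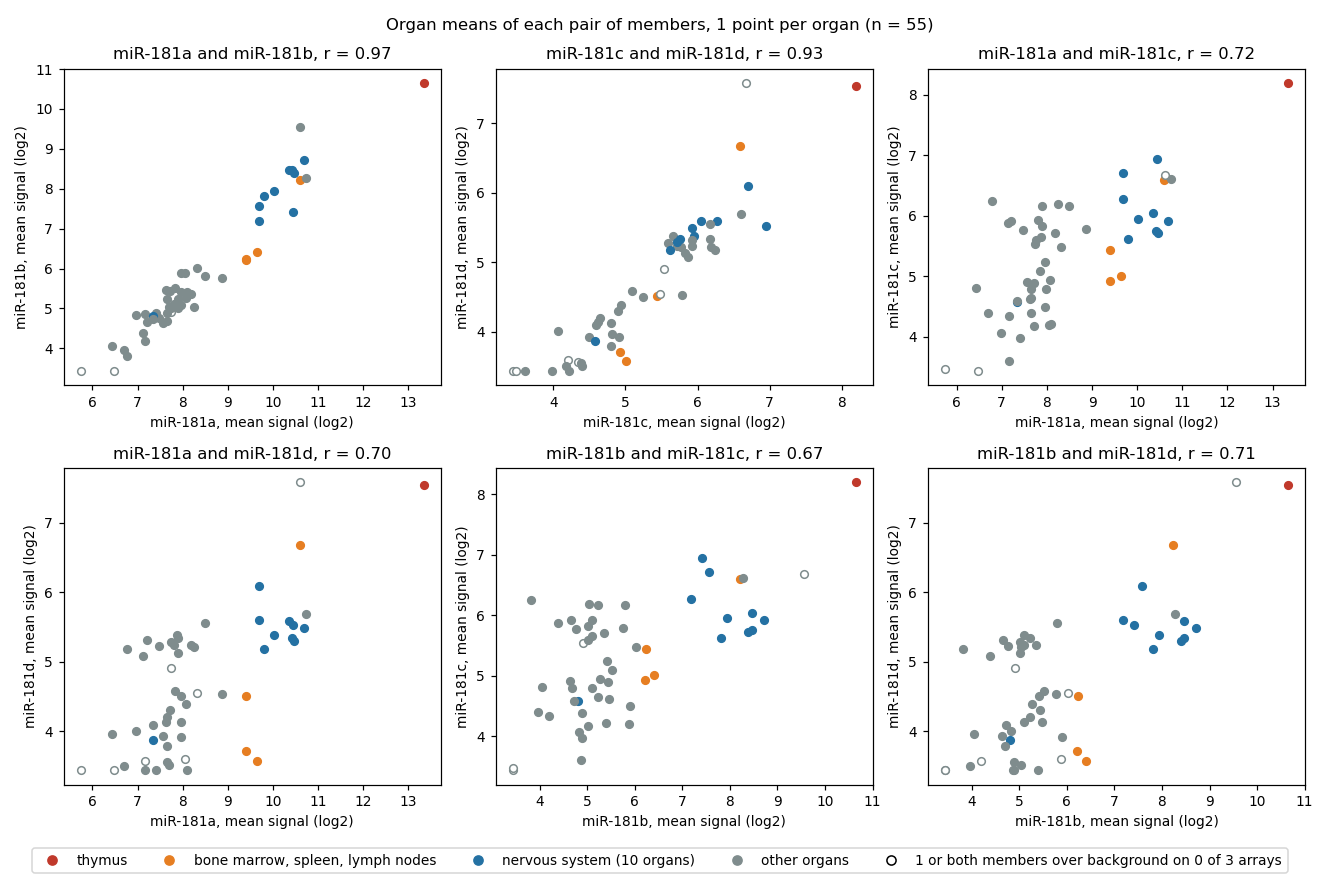
Organ means (log2 scaled signal) of 1 member against another for the 6 pairs, with 1 point per organ, the thymus, the other lymphoid organs with bone marrow, and the nervous system coloured, and open circles where 1 or both members were over background on no array. Points lie closest to a line for miR-181a with miR-181b (r = 0.969) and miR-181c with miR-181d (r = 0.925).

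Outside the family, 140 miRNAs detected on at least 50% of the perfused arrays were ranked by their correlation with each member over the 55 organs. miR-342-3p was the most like miR-181a (0.776) and miR-181b (0.697), followed by miR-128 (0.656 and 0.677), and then by miR-361 for miR-181a (0.631) and miR-328a for miR-181b (0.625). For miR-181c the order was miR-186 (0.660), miR-185 (0.631) and miR-342-3p (0.596), and for miR-181d miR-345-5p (0.696), miR-185 (0.664) and miR-186 (0.647). All of these lay below the correlations within the genome pairs. The order did not hold with the authors' table. There miR-342-3p came first again for miR-181a (0.571) but at rank 6 for miR-181b (0.356), miR-186 at rank 33 for miR-181c (0.325) and miR-345-5p at rank 17 for miR-181d (0.136), while miR-185 came first for miR-181d (0.710). miR-186 and miR-345-5p were highest in pancreas, the organ scaled most.

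The starred strands of the same hairpins were not used to choose the members. Those over background on any array are shown in the same way, from RefSeq build GRCr8, at chr13:52037121-52037142 and chr13:52037303-52037323 on the plus strand, with bases 2 to 8 in capitals.
miR-181a-1*: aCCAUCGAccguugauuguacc
miR-181b-1*: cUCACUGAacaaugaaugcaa
Both come from the hairpins on chromosome 13.

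miR-181a-1* was over background on 59 of 180 arrays, on all 3 arrays in 17 organs and on any array in 22. It measured 625, 704 and 635 in thymus (655 ± 42.7 SD, n = 3), while the next organ, the cervical spinal cord, measured 53.2, 73.0 and 70.1 and bone marrow 61.6 ± 10.6, so the thymus stood apart for it too. No difference from the mean of the other organs is given, since most of them gave no array over background. miR-181b-1* was over background on 3 arrays, those of thymus, at 72.7, 80.8 and 61.2. miR-181a-2*, miR-181b-2*, miR-181c* and miR-181d* were over background on 0 of 180 arrays.

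The effect of blood left in the organs was addressed by the 5 organs taken with and without perfusion. In liver miR-181a measured 98.0, 83.5 and 84.9 in the perfused rats and 60.5, 82.0 and 81.6 in the rats that were not perfused. These ranges did not overlap (exact permutation p 0.1, the smallest that 3 against 3 arrays allow), with a difference of 0.26 ± 0.14 log2 units (limma adjusted p 0.795). miR-181b, miR-181c and miR-181d were at the floor on all 6 liver arrays.

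In the other 4 organs the values of the conditions overlapped for every member. Lung, for example, had 446, 506 and 447 of miR-181a with perfusion and 427, 526 and 541 without. Limma called 0 of the 4 members in each of the 5 organs, with percent called over all 191 tested of 0 in each, and the differences ran from -0.15 to 0.26 log2 units. At an unadjusted limma p under 0.05 there were 11, 4, 12, 4 and 3 miRNAs in liver, kidney, lung, heart atrium and heart interventricular septum, none of them a member. The interaction of perfusion and organ called 0% of all tested (6 at an unadjusted p under 0.05). With slide as a random block the number of members called was again 0, and only 1 slide held both conditions. A p that misses the threshold does not show that the conditions were equal.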

How the data were processed

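Total RNA of each organ was labelled and hybridised to 1-color Agilent rat miRNA arrays. The authors deposited scanner files (Agilent Feature Extraction 10.7.3, per the submitters' processing notes), which give a background-corrected signal intensity per spot and, as other values, flags for spots well above background and for outliers. They also deposited a table of normalized signal intensity per miRNA, used here as an alternative and called the authors' table. No floor was set on its values, so it differs from the other alternatives in more than the scaling.

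Spots flagged as outliers (1.63% to 6.42% of an array, median 2.74%) were left out, and the rest were averaged per probe sequence and then per miRNA. The 75th percentile among 37 miRNAs detected throughout was brought to a mean of 2118, a floor of 10.8 was set, and log2 was taken. MiRNAs over background on all 3 arrays of at least 1 organ (345) or group (191, perfusion) were tested with limma 3.58.1 in R 4.3.3, with 1 term per organ or group, two-sided, and with Benjamini-Hochberg adjustment over all tested. Permutations were made with scipy 1.17.1, exact over arrays or organs, or with 100000 resamples over organ means. The scripts used numpy 2.4.6, pandas 2.3.3 and matplotlib 3.10.9 in Python 3.11.15, and the limma contrasts of thymus, bone marrow and nervous system were tested on simulated data. The F test, perfusion contrasts and permutations were not.

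The arrays lay on 23 slides scanned on 3 days. Arrays with the same number come from the same rat, which pairs them. The mean correlation of residuals was 0.0496 within a rat (0.0332, 0.0611 and 0.0544 for rats 4, 5 and 6) and -0.0246 between rats. Residuals were taken from each organ's mean over rats, which ties the value between rats to that within a rat, with the opposite sign. The value between rats is thus no separate result. Within a rat it was 0.171 for arrays on the same slide and 0.0321 for arrays on different slides. For 8 arrays the labels gave 2 rat numbers. The number of arrays limits the precision.

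The members and lists were chosen with earlier results of these data known. By rule the text names the members, their starred strands, the 3 miRNAs most like each member and the marker miRNAs. Alternatives changed the scaling, floor, background, spots, probe sequences, filter, blocks, weights, organs and arrays.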

Additional observations from a re-analysis of the deposited data

How the results depend on the processing

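Up to 24 alternatives were tried for each comparison of organs. The differences of thymus and bone marrow from the other organs stayed positive and called by limma under every alternative with a test, as did those of the nervous system for miR-181a and miR-181b. For the nervous system, miR-181c and miR-181d turned to -0.012 and -0.00044 with the 75th percentile over all miRNAs and to -0.18 and -0.34 with the normexp background, and miR-181d lost its call with a floor 4 times as high (0.0079). With the median of the miRNAs detected on all arrays as the scale, miR-181b in cerebral cortex turned from -0.55 to 0.046 and miR-181a in the cervical spinal cord from 0.59 to -0.036. The cause was not tested for any of these. Values for single nervous system organs, single lymphoid organs and single pairs were compared too. Among them 64 lost a call, 53 gained a call and 2 called values, given above, turned. The other 1145 include ratios with 1 rat left out, which had no adjusted p and were checked for direction alone. They also include changes of sign in values that were not called.

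Within slides, the differences moved to 5.31 (miR-181b) and 2.88 (miR-181c) in thymus and to 2.77, 2.92, 2.00 and 2.72 (miR-181a to miR-181d) in bone marrow. The probe sequences alone, tried after seeing the data, gave 2.32 for miR-181c (second) and 2.43 for miR-181d (first) in thymus, and 2.31 and 1.80 for miR-181d in bone marrow. For the nervous system they gave 0.33 and 0.91 for miR-181d. Other alternatives chosen after seeing the data limited the organs to those over background. The normexp background used median spot signals and shifted the median of all tested in bone marrow from -0.17 to 0.72.

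The number of unequal pairs was 0 with the authors' table, used without a floor, and 5 with organs exchanged, which was added after seeing the data. Spearman's correlations were 0.946, 0.641, 0.655, 0.539 and 0.603 for miR-181a with miR-181b, miR-181c and miR-181d and for miR-181b with miR-181c and miR-181d. The authors' table gave Pearson's correlations of 0.835, 0.450, 0.519, 0.625 and 0.744 for these pairs and 0.761 for miR-181c with miR-181d. Organs over background gave 0.966, 0.661, 0.607, 0.673 and 0.946 for miR-181a with miR-181b and miR-181c, miR-181b with miR-181c and miR-181d, and miR-181c with miR-181d.

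With rat as a replicate block the thymus difference of miR-181a was 5.05 ± 0.14 (limma adjusted p 1.22e-59), and the block changed 0 calls among 68 results. Leaving out each rat in turn gave 5.00 to 5.08, 4.86 to 4.97, 2.84 to 3.05 and 2.81 to 3.03 for thymus, 2.16 to 2.35, 2.37 to 2.48, 1.20 to 1.37 and 1.92 to 2.07 for bone marrow, and 1.81 to 1.88, 2.21 to 2.32, 0.73 to 0.80 and 0.76 to 0.78 for the nervous system.

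Signal over background limits miR-181c and miR-181d most, since many organs lie near the floor. Pancreas was scaled most, and its levels rest on small signals. Perfused organs come from only 3 rats.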
